A study of Mus musculus with 8 samples.

Results

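Transcripts of the JAK2-STAT3 and NF-κB signaling genes that act downstream of the nicotinic α7 receptor were followed in RNA-Seq libraries from the distal lung of control mice and of mice exposed to cigarette smoke (CS). The genes were chosen by symbol as signaling genes of the cholinergic anti-inflammatory pathway, with earlier results of these data known. They were 10 of the 22756 genes counted, namely Jak2, Stat3, Socs3, Nfkb1, Nfkb2, Rela, Nfkbia, Nfkbiz, Tnfaip3 and Irak3. All 10 were detected in every library, with between 100 and 2722 reads on the coding sequence (CDS). Of the 10 genes, 9 were among the 7190 transcripts that passed the abundance filter, a mean of at least 200 counts. Socs3 did not pass, with a mean of 162 counts, and its tests are from a fit with a wider filter (14140 genes).

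Adult mice of 2 genotypes were used. In α7G mice the Chrna7 gene carries an IRES-tauGFP reporter. In α7E260A:G mice the same reporter is joined to a point substitution (Chrna7-E260A) in every cell of the animal, which restricts the calcium current of the receptor. Both genotypes are more than 90% C57BL/6, and both carry the reporter, so the α7G mice are controls for the substitution and not for the reporter. Exposed mice received side-stream CS over 4 months, 5 days in each week, and control mice breathed room air. Each of the 4 groups has 1 library from males and 1 from females, and the number of mice behind a library is not given in the sources used here. Lungs were lavaged, CD45-positive cells were removed with magnetic beads, and poly(A) RNA of the remaining cells, described as almost wholly EpCAM-positive, was sequenced. Total CDS counts were 8020726 to 10944100 per library, and levels are given as RPM, counts scaled to this total.

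As background, acetylcholine or nicotine acting on α7 in macrophages recruits the kinase JAK2, which phosphorylates the transcription factor STAT3. Phosphorylated STAT3 moves to the nucleus, induces its own inhibitor SOCS3, and dampens the output of NF-κB. NF-κB dimers of p65 (Rela), p50 (Nfkb1) and p52 (Nfkb2) are held in the cytoplasm by IκBα (Nfkbia) until the IκB kinases mark IκBα for degradation. NF-κB then induces Nfkbia itself, the nuclear cofactor Nfkbiz and the ubiquitin-editing enzyme A20 (Tnfaip3). IRAK-M (Irak3) brakes signaling from Toll-like receptors. Much of this control acts on proteins, by phosphorylation and degradation, which transcript counts do not measure.

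Promoter sequence was read for the motifs that NF-κB and STAT factors are known to bind. The promoter records of RefSeq (build GRCm38.p6, 250 bases before to 50 after a start site) hold 12 records for 8 of the 10 genes. A κB-like motif, GGGNNNNNCC on either strand (GGNNNNNCCC on the other), was found in at least 1 record of 7 genes, all but Stat3. This loose motif is also present in 50.8% of all 32851 promoter records, so its presence sets the genes little apart. The STAT motif TTCNNNGAA, which reads the same on both strands, was found for 2 genes, Socs3 and Nfkb2, and in 8.30% of all records. The stretches below are shown because their genes are feedback inhibitors or subunits described in the results. Each is 120 bases, read 5′ to 3′ on the strand of the gene. Capitals mark every match of the κB-like motif in the first 3 stretches, overlapping matches included, and of the STAT motif in the fourth. The Nfkbia stretch is chr12:55492648-55492767 (minus strand), the Nfkb2 stretch chr19:46304617-46304736 (plus), the Tnfaip3 stretch chr10:19015411-19015530 (minus) and the Socs3 stretch chr11:117969447-117969566 (minus).
Nfkbia: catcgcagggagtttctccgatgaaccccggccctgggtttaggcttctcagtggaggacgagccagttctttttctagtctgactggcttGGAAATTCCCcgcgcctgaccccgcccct
Nfkb2: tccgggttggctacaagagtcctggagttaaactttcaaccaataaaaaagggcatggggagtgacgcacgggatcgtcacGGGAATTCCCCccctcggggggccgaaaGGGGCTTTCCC
Tnfaip3: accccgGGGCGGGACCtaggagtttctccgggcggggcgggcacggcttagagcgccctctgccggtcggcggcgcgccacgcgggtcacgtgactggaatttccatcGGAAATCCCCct
Socs3: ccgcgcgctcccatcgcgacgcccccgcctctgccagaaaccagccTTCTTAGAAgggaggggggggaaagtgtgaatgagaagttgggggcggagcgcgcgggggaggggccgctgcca
The first 3 stretches end just before the start site, and the capitals of Nfkbia begin 29 bases before it. The STAT match of Socs3 begins 154 bases before the start site. A match is a description of letters, and binding was not measured.

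The preparation was checked against its markers before the results were read. Chrna7 itself (chromosome 7, 70243578 to 70357455, mm9) was counted 4 times in the male α7E260A:G control library and not at all in the other 7, where 3 counts would be 0.274 to 0.374 RPM. The counts carry no sequence and do not check the substitution. Ptprc, which encodes CD45, was at 771 to 1935 RPM although CD45-positive cells had been depleted. Epcam was at 78.5 to 212 RPM. These values are not scaled to CDS length, so they do not rank Ptprc against Epcam. Summed over 16 alveolar macrophage markers, led by Chi3l3 and Ear2, levels were 10738 to 18056 RPM in α7G and 25180 to 41427 RPM in α7E260A:G. The sum over 9 alveolar type II markers, led by Sftpc and Sftpa1, was 20106 to 30674 RPM in α7G and 4767 to 14836 RPM in α7E260A:G. The sum over alveolar type I markers (Ager, Hopx) was 410 to 485 RPM in α7G and 158 to 339 RPM in α7E260A:G, and that over B cell markers (Cd79a, Cd79b) was 1350 to 2164 and 860 to 1090 RPM, in both cases without overlap. The summed club cell (Scgb1a1, Cyp2f2) and general epithelial (Krt19, Cdh1) markers also reached lower in α7E260A:G, with overlap. Sums over markers of all leukocytes (Lcp1, Coro1a) were 5314 to 6969 RPM and those of ciliated cells (Tppp3, Foxj1) 977 to 1671 RPM, with the genotypes overlapping. The endothelial sum (Pecam1, Vwf) was 316 and 403 RPM in the female α7E260A:G libraries and 689 to 887 RPM in the other 6. Overlapping ranges were also seen for monocytes and dendritic cells (Csf1r, Itgam), neutrophils (S100a9, S100a8), T and NK cells (Gzma, Cd2), fibroblasts and smooth muscle (Dcn, Col1a2) and red cells (Hbb-b1, Hba-a1). The red cell sum was 9374 RPM in the male α7E260A:G CS library and 198 to 2175 RPM in the others. No marker was at 0 in all libraries. In such bulk libraries fewer cells of a type and less RNA per cell cannot be told apart.

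The libraries also differed in how counts depended on CDS length. The slope of a library's log2 deviation on log2 CDS length was 0.41, 0.23, 0.19 and 0.06 per doubling in the male α7E260A:G control, male α7G control, male α7E260A:G CS and female α7G control libraries. It was −0.20 to −0.24 in the other 4, which include both α7G CS libraries. The genes described here have CDS of 675 (Socs3) to 3396 bases (Jak2), so the fold-changes are also given with an offset for CDS length. This offset moved the median log2 fold-change of all transcripts with CS from −0.02 to 0.12 in α7G and from −0.04 to −0.09 in α7E260A:G, and offset values are read beside these medians. Over both genotypes it moved from −0.00 to 0.02, and between the genotypes from 0.04 to 0.06. For the difference of the CS responses it moved most, from 0.03 to −0.20. The share of all transcripts below 0 in that difference went from 47.2% to 71.2%.

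Levels of different genes were compared per kilobase of CDS. Nfkbia had the highest level, 181 ± 32.4 RPM per kb (SD, n = 8 libraries), and was above the next gene, Stat3, in 8 of 8 libraries. Stat3 (78.1 ± 24.5 RPM per kb), Nfkb1 (77.2 ± 23.5) and Rela (69.7 ± 11.5) followed and did not differ beyond their spread, Stat3 exceeding Nfkb1 in 5 and Nfkb1 exceeding Rela in 6 of 8 libraries. Rela was above Nfkb2 (42.6 ± 9.79 RPM per kb) in 8 of 8. Nfkb2 was above Jak2 (38.1 ± 13.5) in only 4 of 8 libraries, and Tnfaip3 (32.6 ± 11.7) above Socs3 (27.5 ± 11.4) in 4 of 8, so that neither pair differed beyond its spread. Irak3 (16.5 ± 2.43 RPM per kb) was above Nfkbiz (11.05 ± 4.75) in 8 of 8 libraries. The inhibitor IκBα was thus the most abundant transcript of the 10 per unit of length, and the cofactor encoded by Nfkbiz the least.

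**Figure D1:**
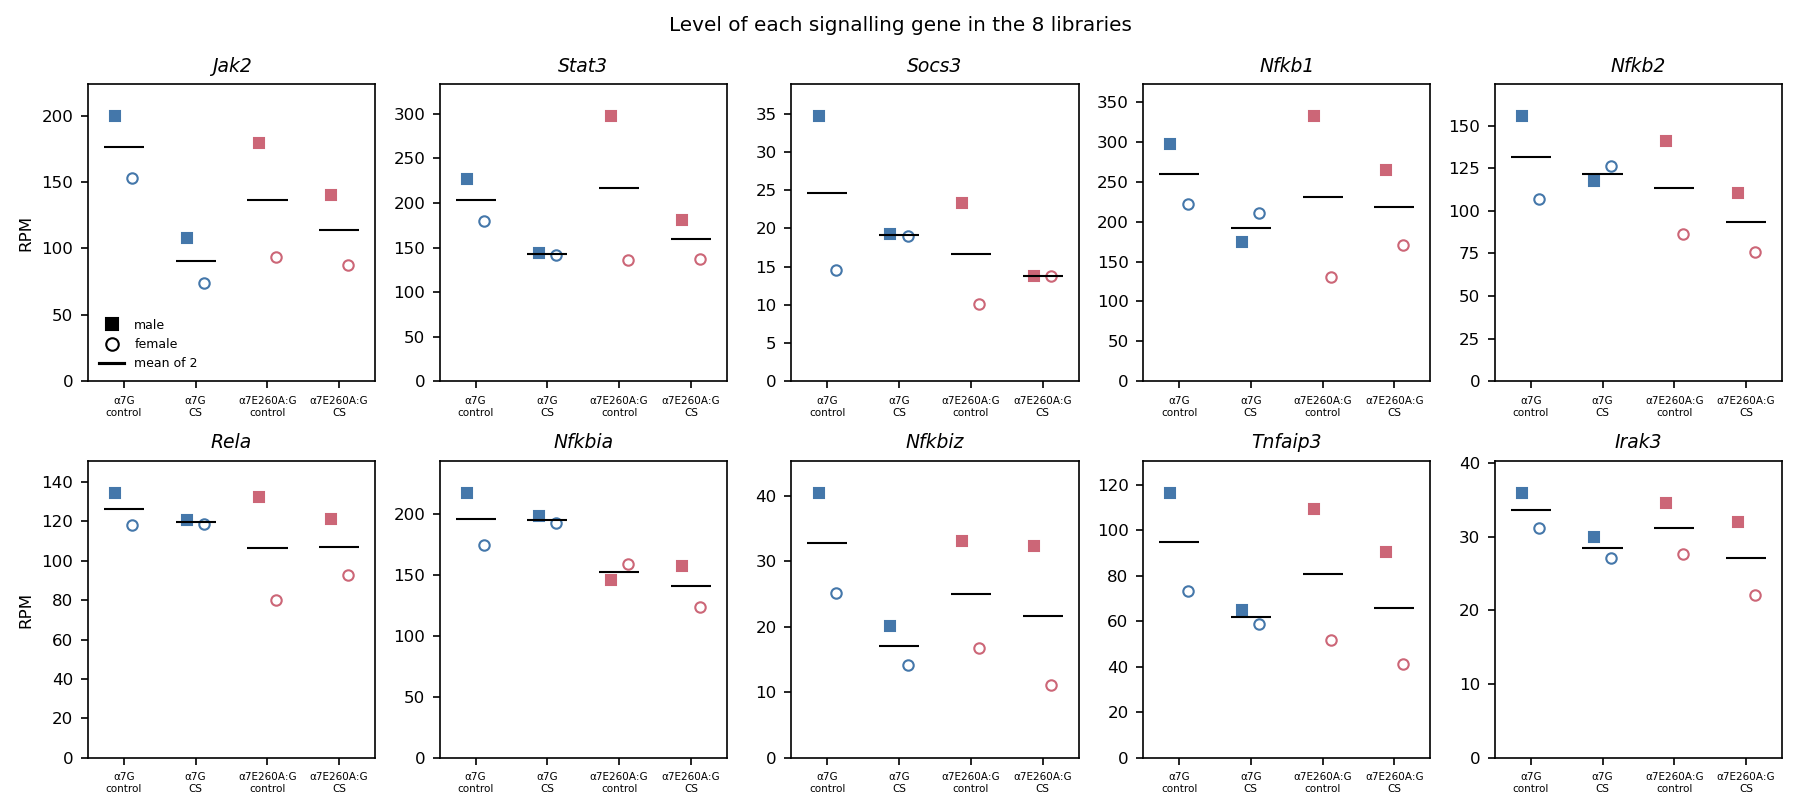
Level of each of the 10 genes in RPM (vertical axes, from 0) in the 4 groups, with the male library as a square, the female library as an open circle and their mean as a line. Jak2 is lower in CS than in control for each sex and genotype, and Nfkbia lies between 174 and 217 RPM in α7G and between 124 and 159 RPM in α7E260A:G.

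Whether CS alters the signaling genes was asked in each genotype and over both. None of the 9 genes that passed the filter was called at an adjusted p of 0.05 (edgeR quasi-likelihood test with Benjamini-Hochberg adjustment over 7190 transcripts) in α7G, in α7E260A:G, over both genotypes or in the difference between the responses. No transcript at all (0%) was called in these 4 comparisons. At an unadjusted p of 0.05, 1 of the 9 genes passed in α7G and 1 over both genotypes, Jak2 each time, and 0 passed in α7E260A:G or in the difference. The background at this level was 6.68% in α7G, 7.58% over both genotypes, 1.70% in α7E260A:G and 1.42% for the difference. DESeq2 called 0 of the 9 genes in these comparisons as well, and its calls with CS over all transcripts are given in the last paragraph. In RPM, 0 of the 10 genes had CS libraries all below the control libraries, against 0.417% of all transcripts. Over both genotypes all 9 log2 fold-changes were below 0, with a median of −0.21 beside −0.00 for all transcripts. In α7G 6 of 9 were below 0 (median −0.30, all transcripts −0.02) and in α7E260A:G 9 of 9 (median −0.29, all transcripts −0.04). Of all transcripts, 50.5% were below 0 over both genotypes, 51.7% in α7G and 55.7% in α7E260A:G. With the CDS length offset 6 of the 9 were below 0 over both genotypes, with a median of −0.19, beside 46.8% of all transcripts. Nfkb1 (0.07), Nfkb2 (0.04) and Rela (0.03) were above 0. In α7G 5 of 9 were then below 0, with a median of −0.02, beside 34.9% of all transcripts. In α7E260A:G 9 of 9 were below 0, with a median of −0.38, beside 66.2%.

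Jak2 (ENSMUSG00000024789.6, chromosome 19, 29326318 to 29387570, plus strand, mm9), the kinase of the pathway, had the lowest log2 fold-change with CS in α7G before the length offset, next to that of Nfkbiz, and not with it. It was at 199 RPM in the male and 153 in the female α7G control library, and at 108 and 73.8 RPM in the male and female α7G CS libraries. In α7E260A:G it was at 179 and 93.8 RPM in control males and females and at 140 and 87.3 RPM after CS. Jak2 was lower after CS in 4 of 4 pairs of the same genotype and sex, to 0.542 and 0.482 of the control in α7G males and females and to 0.782 and 0.930 in α7E260A:G. Both α7G CS libraries were below both α7G controls for Jak2, Stat3, Nfkb1, Nfkbiz, Tnfaip3 and Irak3, 6 of the 10 genes, as for 41.5% of all transcripts. The α7E260A:G libraries overlapped for all 10 genes, and 2.78% of all transcripts were lower there without overlap. With the length trend removed, 3 genes (Jak2, Stat3 and Nfkbiz) did not overlap in α7G and 5 (Jak2, Stat3, Nfkb2, Nfkbia and Irak3) in α7E260A:G, beside 24.5% and 12.3% of all transcripts. The log2 fold-change of Jak2 was −0.83 ± 0.31 (SE) in α7G (adjusted p = 0.589, edgeR), −0.32 ± 0.31 in α7E260A:G (adjusted p = 1.00) and −0.58 ± 0.22 over both (adjusted p = 0.630). The difference between the 2 responses was 0.51 ± 0.43 (adjusted p = 0.997). With the CDS length offset the values were −0.27 ± 0.26 in α7G and −0.28 ± 0.26 in α7E260A:G, and their difference was −0.00 ± 0.37. For all transcripts the median difference was then −0.20. A fit of the 4 α7G libraries alone gave −0.83 with an adjusted p of 0.036, in a fit that called 16.0% of all transcripts. Ptprc followed Jak2 across the libraries, and was lowest (771 and 804 RPM) in the 2 α7G CS libraries.

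Stat3 (ENSMUSG00000004040.10, chromosome 11, 100746412 to 100800854, minus strand), the factor that JAK2 activates, was at 227 and 180 RPM in male and female α7G controls and at 144 and 142 RPM after CS. In α7E260A:G it was at 297 and 136 RPM in control males and females and at 181 and 137 RPM after CS. It was lower after CS in 3 of 4 pairs and level in the females of α7E260A:G. The log2 fold-change was −0.38 ± 0.28 in α7G, −0.48 ± 0.28 in α7E260A:G and −0.43 ± 0.20 over both (adjusted p = 0.635, edgeR). With the CDS length trend removed from RPM, Stat3 was at 170 to 235 in the 4 control libraries and at 153 to 160 in the 4 CS libraries, and the groups did not overlap, as for 1.77% of all transcripts on that scale. With the offset the log2 fold-change was −0.04 ± 0.21 in α7G, −0.47 ± 0.21 in α7E260A:G and −0.25 ± 0.15 over both (adjusted p = 0.875). The α7G value was thus near 0 with the offset, where the median of all transcripts was 0.12 in α7G and −0.09 in α7E260A:G. The difference between the Stat3 responses was −0.43 ± 0.30 (adjusted p = 0.942, edgeR). The median difference of all transcripts with the offset was −0.20.

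Socs3 (ENSMUSG00000053113.3, chromosome 11, 117827393 to 117831361, minus strand), the STAT3-induced inhibitor of JAKs, was apart between the sexes in the controls and not after CS. It was at 34.6 RPM in the male and 14.5 in the female α7G control, and at 19.3 and 19.0 RPM after CS. In α7E260A:G it was at 23.3 and 10.1 RPM in control males and females and at 13.8 and 13.7 RPM after CS. After CS it was thus lower in both male pairs and higher in both female pairs, with the sexes level in CS. In the fit with the wider filter the log2 fold-change was −0.24 ± 0.31 over both genotypes (adjusted p = 0.807, edgeR). The ratio of Socs3 to Stat3 RPM was 0.0805 to 0.153 in α7G and 0.0740 to 0.100 in α7E260A:G, with overlap.

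Of the NF-κB subunits, Rela was nearly level with CS over both genotypes. The values of Nfkb1 and Nfkb2 varied between libraries and with the length offset. For none of these subunits did the difference between the responses of the genotypes pass the test. Rela (ENSMUSG00000024927.6, chromosome 19, 5637483 to 5648130, plus strand), the activating subunit p65, was at 134 and 118 RPM in male and female α7G controls and 121 and 119 after CS, and at 132 and 80.0 RPM in α7E260A:G controls and 121 and 92.5 after CS. Its log2 fold-change over both genotypes was −0.00 ± 0.15, the nearest to 0 of the 9. With the offset it was 0.21 ± 0.19 in α7G and −0.14 ± 0.19 in α7E260A:G, and the difference between these was −0.35 ± 0.27 (adjusted p = 0.942, edgeR). Nfkb1 (ENSMUSG00000028163.8, chromosome 3, 135247619 to 135354511, minus strand) was at 297, 222, 174 and 211 RPM in α7G control males and females and CS males and females. In the same order in α7E260A:G it was at 332, 130, 265 and 171 RPM. Its lowest and its highest value were both from the α7E260A:G controls. The log2 fold-change of Nfkb1 was −0.30 ± 0.35 in α7G and −0.21 ± 0.25 over both genotypes, and with the length offset 0.17 ± 0.22 and 0.07 ± 0.16. Its difference between the responses was 0.19 ± 0.50, or −0.20 ± 0.32 with the offset (adjusted p = 0.997 and 0.942, edgeR). Nfkb2 (ENSMUSG00000025225.7, chromosome 19, 46379227 to 46386580, plus strand) was at 155, 107, 117 and 126 RPM in α7G and at 141, 86.3, 111 and 75.7 RPM in α7E260A:G. The Nfkb2 stretch shown carries 4 κB-like matches, which overlap in pairs and begin 39, 38, 11 and 10 bases before the start site. For Nfkb2 the CS results were as follows. Its log2 fold-change with CS was 0.02 ± 0.25 in α7G and −0.35 ± 0.25 in α7E260A:G, and with the offset 0.46 ± 0.24 and −0.38 ± 0.24. The difference between these was −0.37 ± 0.35 (adjusted p = 0.997, edgeR), or −0.83 ± 0.34 with the length offset (adjusted p = 0.942). The latter stands beside a median of −0.20 for all transcripts.

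Among the inhibitors and cofactors, Nfkbiz, Tnfaip3 and Irak3 were, like Jak2, lower after CS in 4 of 4 pairs, as were 12.1% of all transcripts tested. Tnfaip3 (ENSMUSG00000019850.5, chromosome 10, 18720716 to 18735463, minus strand) was at 117 and 73.2 RPM in male and female α7G controls and at 65.2 and 58.9 after CS, and at 110 and 51.9 RPM in α7E260A:G controls and 90.5 and 41.4 after CS. Its log2 fold-change over both genotypes was −0.42 ± 0.27 (adjusted p = 0.682, edgeR), and −0.27 ± 0.16 with the offset. The spread between the sexes in α7E260A:G exceeded the difference with CS. Nfkbiz (ENSMUSG00000035356.9, chromosome 16, 55811488 to 55839012, minus strand) was at 40.4 and 25.1 RPM in α7G controls and 20.1 and 14.1 after CS, and at 33.1 and 16.8 RPM in α7E260A:G controls and 32.3 and 11.1 after CS. It gave −0.81 ± 0.48 in α7G, about the size of Jak2 but with a larger error, and −0.29 ± 0.48 in α7E260A:G. With the offset Nfkbiz was at −0.49 ± 0.33 and −0.38 ± 0.33. Irak3 (ENSMUSG00000020227.4, chromosome 10, 119578704 to 119639186, minus strand) was at 27.07 to 35.96 RPM in α7G and at 22.1 to 34.6 RPM in α7E260A:G. Its SD over the 8 libraries was 14.8% of its mean, near that of Rela (16.5%) and Nfkbia (17.8%). The log2 fold-change of Irak3 was −0.20 ± 0.16 over both genotypes. In α7G it was −0.11 ± 0.22, or 0.10 ± 0.24 with the offset, and in α7E260A:G −0.29 ± 0.22, or −0.41 ± 0.25. With the length trend removed, Jak2, Stat3, Tnfaip3 and Irak3 were lower in 4 of 4 pairs, as were 11.1% of all transcripts.

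**Figure D2:**
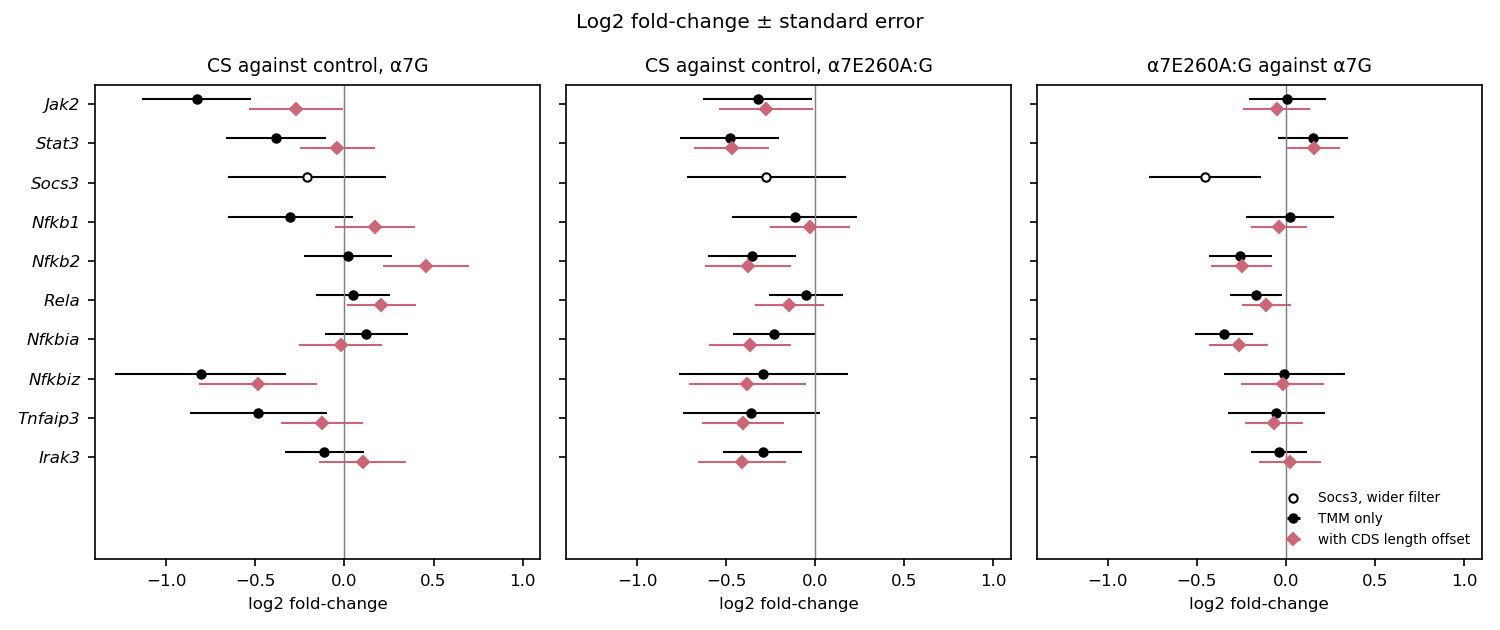
Log2 fold-changes (horizontal axes) with standard errors for CS against control in each genotype and for the genotypes over both exposures, from edgeR with TMM scaling (black circles) and with a CDS length offset (red diamonds). Socs3 is from the fit with the wider filter (open circle) and has no offset value. In α7G, Jak2 moves from −0.83 to −0.27 with the offset, while the genotype difference of Nfkbia moves from −0.35 to −0.27.

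The genotypes were then compared over both exposures. None of the 9 genes was called (edgeR), against 0.0834% of all transcripts, and 0 of 9 passed an unadjusted p of 0.05, against 11.9%. DESeq2 called 0 of the 9 as well, though it called more of all transcripts than edgeR did, as given in the last paragraph. The log2 fold-changes lay between −0.35 and 0.15 with a median of −0.04, beside 0.04 for all transcripts.

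Nfkbia (ENSMUSG00000021025.7, chromosome 12, 56590398 to 56593634, minus strand), the IκBα gene and an NF-κB target, had the largest genotype difference of the 9. It was at 217 and 174 RPM in male and female α7G controls and at 198 and 193 RPM after CS. In α7E260A:G it was at 146 and 159 RPM in controls and at 157 and 124 RPM after CS. The 4 α7E260A:G libraries were all below the 4 α7G libraries, as for 5.15% of all transcripts, with means of 146 ± 16.1 and 195 ± 17.6 RPM (SD, n = 4) and a ratio of 0.749. The log2 fold-change was −0.35 ± 0.16 (adjusted p = 0.492, edgeR) and −0.27 ± 0.16 with the length offset. The groups also did not overlap with the length trend removed, as for 5.84% of all transcripts. With TMM-scaled RPM they did overlap, the female α7E260A:G control library being at 180 and the female α7G control library at 169. With CS, Nfkbia gave 0.12 ± 0.23 in α7G and −0.23 ± 0.23 in α7E260A:G, and −0.02 ± 0.23 and −0.37 ± 0.23 with the offset. The macrophage marker sum was higher and the type II cell, type I cell and B cell sums lower in the α7E260A:G libraries, without overlap, and the part of this in the Nfkbia values was not tested.

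Lower values in α7E260A:G in 4 of 4 pairs of the same exposure and sex were also seen for Socs3 and Nfkb2, making 3 of the 10 genes, against 15.0% of all transcripts. Socs3 was at 0.672, 0.692, 0.716 and 0.724 of the α7G level in control males, control females, CS males and CS females. These ratios were close to each other in RPM only. With the length trend removed Socs3 was, in the same order, at 39.6, 14.8, 16.3 and 16.8 in α7G. In α7E260A:G it was then at 29.7, 9.34, 14.8 and 12.3, and the ratios lay further apart. Its log2 fold-change was −0.45 ± 0.31 (adjusted p = 0.682, edgeR, wider filter). Nfkb2 was at 0.600 to 0.943 of the α7G level, with a log2 fold-change of −0.26 ± 0.18. With the length trend removed, Socs3 and Nfkbia were lower in 4 of 4 pairs, as were 14.8% of all transcripts. Rela was 0.676 and 0.780 of the α7G level in the female pairs and 0.986 and 1.00 in the male pairs. Jak2 (0.01 ± 0.22), Nfkb1 (0.02 ± 0.25), Nfkbiz (−0.01 ± 0.34), Tnfaip3 (−0.05 ± 0.27) and Irak3 (−0.04 ± 0.16) were level between the genotypes within their errors. Stat3 gave 0.15 ± 0.20, the highest of the 9.

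The genes varied together across the libraries, and the male libraries were mostly higher. The male library was above the female library in all 4 groups for 7 of the 10 genes, Jak2, Stat3, Socs3, Rela, Nfkbiz, Tnfaip3 and Irak3, as for 24.8% of all transcripts. In both α7E260A:G groups it was above for 9 of the 10, all but Nfkbia, beside 60.2% of all transcripts. Over the 45 pairs of genes, Pearson's r of log2(RPM + 0.5) across the 8 libraries had a median of 0.74 and ranged from 0.05 to 0.97. The same libraries were high for CDS length slope and for Ptprc. Against the length slope, r was 0.96 for Stat3, 0.92 for Nfkb1, 0.89 for Jak2 and Tnfaip3, and −0.01 for Nfkbia. Against Ptprc, itself a CDS of 4031 bases, r was 0.95 for Jak2, 0.91 for Stat3 and Nfkbiz and 0.10 for Nfkbia. Against Epcam, r was 0.68 for Nfkbia and −0.20 for Stat3. Against the endothelial marker Pecam1, r was 0.92 for Rela, 0.88 for Nfkb2 and 0.71 for Nfkbia, within a range of 0.54 to 0.92 over the 10 genes. These are descriptions over 8 libraries that share depth, length slope and cell makeup, and the part of each was not tested.

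**Figure D3:**
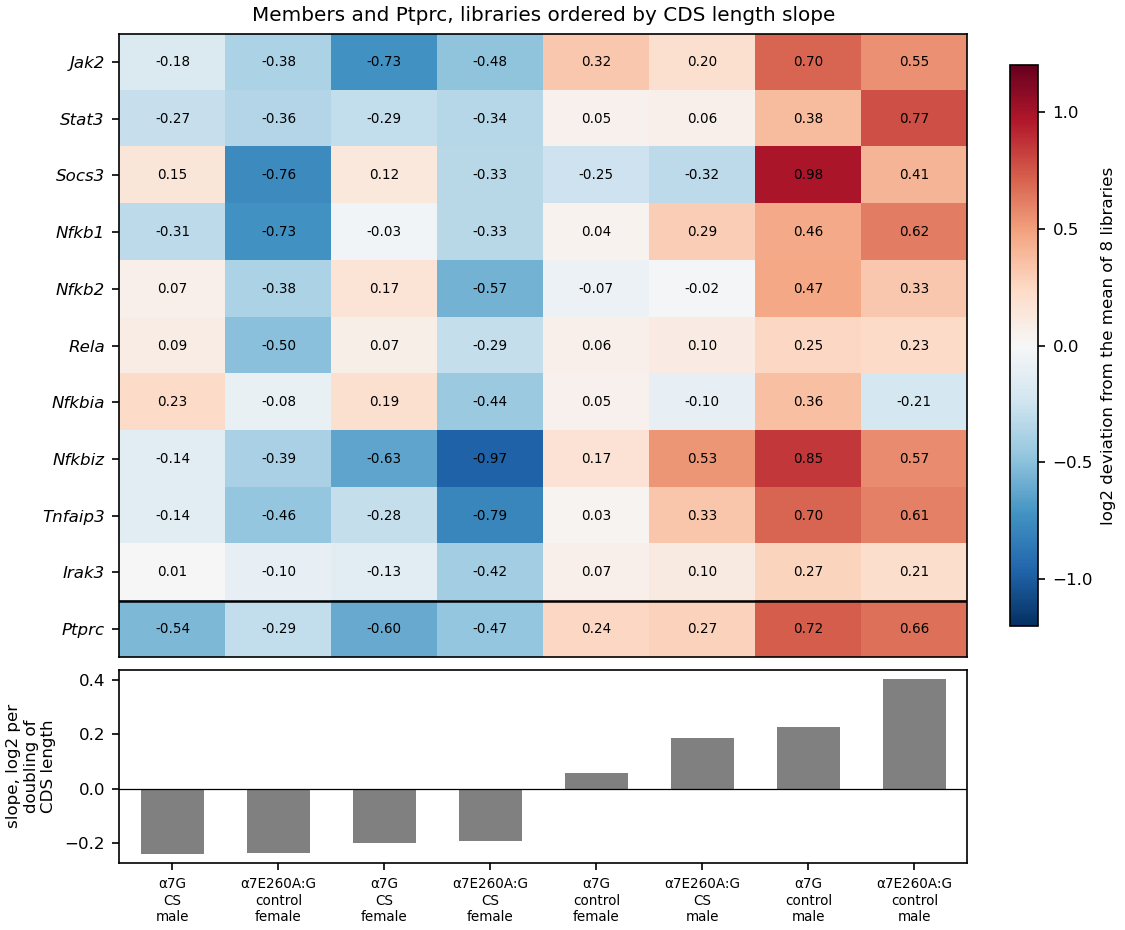
Log2 deviation of each gene's RPM (0.5 added) from its mean over the 8 libraries, in rows with the value in each cell, for the 10 genes and for Ptprc, with libraries in columns ordered by their CDS length slope (bars below, log2 per doubling of CDS length). The male α7G and α7E260A:G control libraries, at the right with slopes of 0.23 and 0.41, are high for every gene but Nfkbia, which is below its mean in the latter.

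The transcripts most like 5 of the genes over the 8 libraries were sought among those past the filter. For Jak2 they were Nfatc3, Pot1b and Dhx57 (Pearson's r = 0.99, 0.98 and 0.98), and Grap2 and Supt6h were among those most like Stat3 (0.99 each). Nfkb1 was most like Fmnl1, Ambra1 and Zmiz2 (0.996, 0.996 and 0.995). Nfkbia was most like Gimap3, Dusp2 and Cd72 (0.98, 0.98 and 0.97). Socs3 was most like Tlr9, Btg2 and Csrnp1 (0.96 each). Such values are the highest of 7190 candidates over 8 libraries and carry no test. The transcripts like Nfkbia had a CDS of 903, 954 and 1083 bases, beside 942 for Nfkbia. Those like Nfkb1 had 3469, 3921 and 2760, beside 2919, and those like Jak2 3435, 1920 and 4164, beside 3396. Others were less alike in length, such as Grap2 (966, Stat3 2310) and Tlr9 (3096, Socs3 675). The part of CDS length in these likenesses was not tested.

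The rest of the pathway was described by 8 lists of 134 genes, none of them among the 10, of which 133 were in the files and 98 passed the filter. None of the 98 was called in any of the 5 comparisons (edgeR). At an unadjusted p of 0.05, 1 was higher and 3 lower with CS in α7G, 0 and 2 in α7E260A:G, 1 and 4 over both genotypes, and 9 higher and 7 lower between the genotypes. These are 4.08%, 2.04%, 5.10% and 16.3% of the 98, beside 6.68%, 1.70%, 7.58% and 11.9% of all transcripts. The median log2 fold-change of the 98 was −0.13 with CS over both genotypes (all transcripts −0.00), with 71 below 0, and 0.08 between the genotypes (all transcripts 0.04). With the length offset these medians were −0.10, with 63 below 0, and 0.12, and 3 of the 98 were called between the genotypes, as were 3.88% of all transcripts. Of all transcripts, 50.5% were below 0 with CS over both genotypes, and 46.8% with the offset.

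With CS, all 9 JAK and STAT genes tested besides Jak2 and Stat3 were below 0 over both genotypes, with a median of −0.36, beside 50.5% of all transcripts. With the CDS length offset 6 of the 9 were below 0 and their median was −0.03, beside 46.8% of all transcripts below 0. Among them, the kinase Jak1 gave −0.46 ± 0.19 (adjusted p = 0.630, edgeR), and −0.16 ± 0.19 with the offset. Of the 10 negative regulators of JAK-STAT tested, 8 were below 0. Ptpn11, the phosphatase SHP2, was at 53.2 and 42.0 RPM in α7G controls and 24.6 and 23.6 after CS, and at 71.8 and 31.3 RPM in α7E260A:G controls and 42.0 and 23.2 after CS. It was lower in 4 of 4 pairs, at −0.78 ± 0.24 (adjusted p = 0.630), and −0.71 ± 0.16 with the offset. The cytokine receptors that use JAKs gave a median of −0.28 over 13 genes, among them Il6ra (−0.67 ± 0.30) and its signaling partner Il6st (−0.60 ± 0.31). On the NF-κB side, the kinase Ikbke gave −0.61 ± 0.18 (adjusted p = 0.630), and 8 of 9 genes of the IKK complex and its kinases were below 0 (median −0.17). Among 19 receptors and adaptors 16 were below 0 (median −0.15), with Tlr3 at −0.59 ± 0.19. Of 13 other inhibitors and deubiquitinases 10 were below 0 (median −0.06), with Cyld at −0.36 ± 0.16. With the offset Il6ra was at −0.69 ± 0.23, Il6st at −0.34 ± 0.15 and Ikbke at −0.51 ± 0.17. Tlr3 was then at −0.42 ± 0.31 and Cyld at −0.13 ± 0.17. The 22 target genes were split, 10 below 0 and a median of 0.03, and Ier3, an early response gene, was higher after CS in 4 of 4 pairs at 0.71 ± 0.20 (adjusted p = 0.630), and 0.38 ± 0.23 with the offset. The medians with the offset were −0.12 for the negative regulators (7 of 10 below 0), −0.17 for the cytokine receptors (9 of 13) and −0.15 for the IKK complex (6 of 9). They were −0.12 for the receptors and adaptors (13 of 19), −0.08 for the other inhibitors (9 of 13) and −0.02 for the target genes (12 of 22).

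Relb, the partner of p52, had the lowest p of the 3 other NF-κB and IκB genes tested with CS in each genotype, though not over both. It was at 36.8, 26.2, 46.2 and 37.3 RPM in α7G control males and females and CS males and females. In the same order in α7E260A:G it was at 33.9, 26.1, 25.1 and 21.3 RPM. With CS its log2 fold-change was 0.54 ± 0.24 in α7G and −0.45 ± 0.24 in α7E260A:G (adjusted p = 0.589 and 1.00, edgeR), and it was higher after CS in both α7G pairs and lower in both α7E260A:G pairs. The difference between the responses was −0.98 ± 0.34, which did not pass (adjusted p = 0.997), and −1.30 ± 0.37 with the offset (adjusted p = 0.942). The median difference of all transcripts was 0.03, and −0.20 with the offset.

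Between the genotypes the JAK-using cytokine receptors had the highest median of the lists, 0.27, with 12 of 13 above 0. Of all transcripts, 43.9% were below 0 in this comparison. Csf2rb, the shared chain of the GM-CSF, IL-3 and IL-5 receptors, was at 145 to 240 RPM in α7G and 246 to 545 RPM in α7E260A:G, at 1.03 ± 0.22 (adjusted p = 0.119, edgeR). Csf2ra, the GM-CSF receptor α chain, gave 0.63 ± 0.16 (adjusted p = 0.158). With the CDS length offset both were called, at 1.00 ± 0.17 and 0.71 ± 0.16 (adjusted p = 0.0197 and 0.0423). The 19 receptors and adaptors upstream of NF-κB had a median of 0.08, with 6 below 0. Of these 19, 5 were higher at an unadjusted p of 0.05 (edgeR), beside 7.09% of all transcripts, and none lower. Tlr2 (0.64 ± 0.15), Tlr4 (0.49 ± 0.13) and Tlr7 (0.84 ± 0.26) led them. These receptors are also expressed by macrophages, whose marker sum was higher in the same libraries, and that part was not tested. Of the other lists, the JAK and STAT genes had a median of 0.12 with Stat4, a STAT of T and NK cells, at −0.63 ± 0.17, the negative regulators one of 0.04 with Ptpn1 at 0.32 ± 0.18, and the IKK genes one of 0.16 with Chuk at −0.35 ± 0.15. The other inhibitors had a median of 0.09, with Traf1 at −0.57 ± 0.15, Tnip1 at 0.46 ± 0.14 and Sigirr at −0.48 ± 0.16. The target genes had a median of −0.12, with Il1a at 1.00 ± 0.28, Junb at −0.81 ± 0.23 and Ccnd1 at −0.77 ± 0.23, and 15 of 22 below 0. Il1a, the cytokine IL-1α, was the third gene called with the offset, at 1.07 ± 0.22 (adjusted p = 0.0326).

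**Figure D4:**
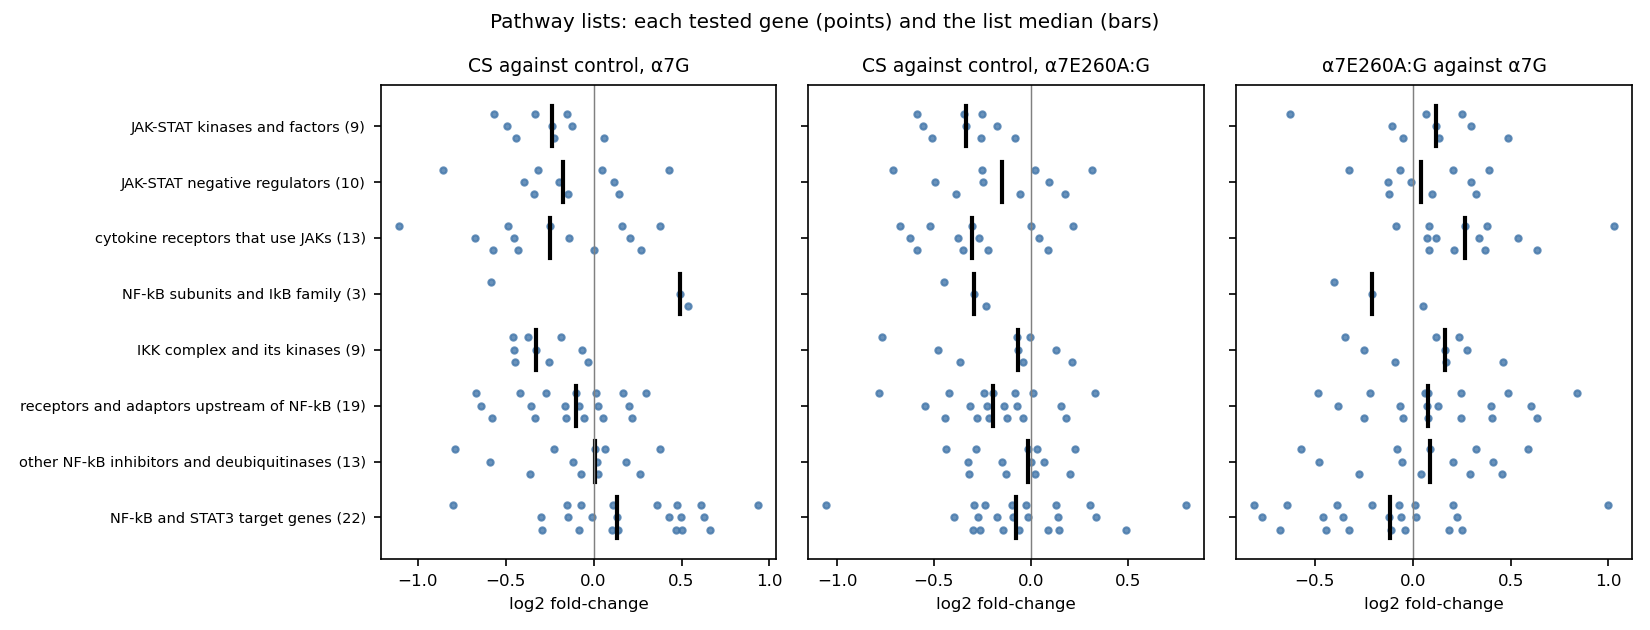
Log2 fold-change (horizontal axes) of each tested gene of the 8 pathway lists (points, number tested in parentheses) and the median of each list (bars), for CS against control in α7G and in α7E260A:G and for α7E260A:G against α7G. No point passed the test without the length offset, and the JAK-using receptors have a median of 0.27 in the genotype comparison.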

How the data were processed

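The 8 RNA-Seq libraries form 4 groups of a male and a female library. The authors aligned to mm9 (NCBIM37) with STAR and used htseq-count on the CDS of GENCODE M1. The deposited values are raw counts, without normalization, for 22756 genes. All identifiers matched GENCODE M1, which gave coordinates and CDS lengths. The signaling genes and lists were chosen with earlier results of these data known. Transcripts with a mean count of at least 200 were tested, leaving out immunoglobulin, histocompatibility, Gm and ribosome subunit genes (7190 transcripts). Counts were tested with edgeR 4.0.16 in R 4.3.3 (glmQLFit, TMM, Benjamini-Hochberg at 0.05) in a model of the 4 groups, and standard errors were derived from the F statistic. Whether the libraries are separate mice or pools is not stated, so p-values measure the spread between libraries, males and females included.

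The alternatives tried were DESeq2 1.42.0, scaling to library size or with DESeq2 size factors, filterByExpr (14140 genes), all 17542 genes with a count, a CDS length offset (lowess, span 0.667), sex as a replicate block, both together, the 4 libraries of a genotype alone, and leaving out each library. Tests of a difference between the sexes were added after seeing the data. The scripts were tested on simulated data. Python 3.11.15 with pandas 2.3.3 and matplotlib 3.10.9 was used. Genes named were the 10, Chrna7, the leading markers and, of each list, called genes or otherwise those of lowest p, and some genes that this rule names are not reported here. The floors of 3 counts cover counting error only.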

Additional observations from a re-analysis of the deposited data

Results flagged for a closer look

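For 13 results, the libraries of 2 sets moved in opposite directions under the same contrast, 5 of them among the 10 signaling genes. Socs3 was lower after CS in both male pairs, by log2 ratios of −0.84 and −0.75, and higher in both female pairs, by 0.38 and 0.45, so that the mean ratios of males and females differed by −1.21. This difference was not tested for Socs3, which did not pass the abundance filter. Rela was lower after CS in both male pairs (−0.15 and −0.13) and at 0.00 and 0.21 in the female pairs, a difference of −0.25. With the CDS length trend removed, a scale added after seeing the data, Socs3 had the same directions in all 4 pairs and Rela did not, with ratios of 0.04 and −0.15 in males. Tested over all transcripts, after seeing the data, the difference between the sexes in the CS response of Rela, as females against males, was 0.15 ± 0.27 (adjusted p = 0.974, edgeR). Opposite directions of this kind were seen for 7.69% of all transcripts, and no transcript passed the test.

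Stat3 and Nfkb1 were higher in α7E260A:G than in α7G in both male pairs and lower in both female pairs. The log2 ratios of Stat3 were 0.39 and 0.33 in males and −0.41 and −0.05 in females, a difference of 0.59. Those of Nfkb1 were 0.16 and 0.61 in males and −0.77 and −0.30 in females, a difference of 0.92. The tests of the difference between the sexes, females against males and also chosen after seeing the data, gave −0.34 ± 0.28 for Stat3 (adjusted p = 0.467) and −0.64 ± 0.32 for Nfkb1 (adjusted p = 0.285, edgeR), while 22.5% of all transcripts showed opposite directions and none passed. The female α7E260A:G libraries have CDS length slopes of −0.24 and −0.20 and the male ones 0.41 and 0.19. With the length trend removed the directions were no longer opposite for Stat3, at 0.34 and −0.05 in males and 0.07 and 0.01 in females. For Nfkb1 they were, at 0.01 and 0.06 in males and −0.22 and −0.24 in females, a difference of 0.27.

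Jak2 was lower in α7E260A:G than in α7G in both control pairs (−0.15 and −0.71) and higher in both CS pairs (0.37 and 0.24), a difference of −0.74. Such opposite directions were seen for 8.86% of all transcripts. The test of the difference between the CS responses gave 0.51 ± 0.43 (adjusted p = 0.997), and −0.00 ± 0.37 with the length offset. With the length trend removed the ratios were −0.36 and −0.12 in the control pairs and −0.28 and 0.29 in the CS pairs, no longer opposite.

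Of the other pathway genes named, Relb was higher after CS in both α7G pairs and lower in both α7E260A:G pairs, a difference of 0.78 between the mean log2 ratios. Tlr7 (−0.97) and Chuk (−0.69) were lower in both α7G pairs and higher in both α7E260A:G pairs, and 13.8% of all transcripts showed opposite directions between the genotypes. Csf2rb (−0.66), Ptpn1 (−0.70) and Ccnd1 (−0.78) were lower after CS in both male pairs and higher in the female pairs, although Csf2rb was at 0.00 and 0.12 there. Ptpn11 (0.82) and Il6st (1.24) were higher in α7E260A:G in both male pairs and lower in both female pairs. The values are α7G minus α7E260A:G for the first 3 genes and males minus females for the rest. The tests of these 8 differences, of which those between the sexes were chosen after seeing the data, gave adjusted p-values of 0.231 to 0.997 (edgeR), the lowest for Il6st. With the length trend removed 3 of the 8, Relb, Ccnd1 and Il6st, still had opposite directions.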

How the results depend on the processing

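The count of genes called stayed at 0 in all 5 comparisons under the alternatives run, except that the 4 α7G libraries alone called 1, Jak2, with CS. For groups that do not overlap, the genotypes gave 0 genes with TMM-scaled RPM and 1 to 2 when leaving out a library (Socs3 joined Nfkbia without the male α7E260A:G control). CS gave 1 with TMM-scaled RPM (Irak3), 1 with the length trend removed (Stat3), and 0 to 1 when leaving out a library (Jak2 without the female α7E260A:G control). Of 738 log2 fold-changes under an alternative, 80 had the opposite sign, none of them called, and 19 of these also moved by more than the standard error. With the CDS length offset the latter were the Jak2 difference of responses (−0.0040, and −0.0055 with the replicate block), Nfkb1 with CS in α7G (0.17, block 0.16) and over both genotypes (0.071, block 0.065), and Nfkb2 over both (0.0382, block 0.0377). Leaving out each library, CS in α7E260A:G ranged from −0.57 to 0.015 for Jak2, −0.52 to 0.49 for Nfkb1, −0.43 to 0.043 for Nfkbia, −1.09 to 0.22 for Nfkbiz, −0.22 to 0.17 for Rela and −0.88 to 0.068 for Tnfaip3. CS over both genotypes ranged from −0.41 to 0.10 for Nfkb1, the genotype difference from −0.29 to 0.23 for Nfkb1 and −0.094 to 0.31 for Stat3, and the difference of responses from −0.29 to 1.03 for Nfkbiz and −0.43 to 0.34 for Stat3. The cause was not tested.

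The sexes do not mark shared animals, and the log2 male to female ratios of all transcripts correlated between groups at −0.12 to 0.83 (mean 0.32). With sex as a replicate block, 0 of the 9 genes were called, Jak2 had an adjusted p of 0.321 in α7G and 0.279 over both genotypes, and the genotype comparison called 40 transcripts in place of 6. It called 279 with the length offset, 573 with block and offset, 422 with DESeq2, 69 with all counted genes, 13 with filterByExpr and 1 to 275 when leaving out a library. CS called 1150 transcripts in the α7G libraries alone and 25 with DESeq2. In the fit of all 8 libraries the same Jak2 difference in α7G (−0.83) did not pass. With the length offset, chosen for the lists after seeing the data, 3 of the 98 pathway genes were called between the genotypes in place of 0. Depth limits Nfkbiz and Socs3 most, with 100 and 110 reads in their lowest libraries.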
